A study of Drosophila melanogaster with 4 samples.

Results

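The genes described here are 8 rows of the count tables, chosen by symbol with earlier results of these data known. They are the yolk protein genes Yp1, Yp2 and Yp3, the sex-biased fat body genes fit and to (takeout), and the sex determination genes Sxl, tra and dsx. All 8 of them were present among the 16489 gene symbols of the tables, and all 8 passed the filter on low counts. They were measured by RNA sequencing of adult Drosophila melanogaster heads, 30 heads to a library. Control heads carried the eye driver GMR-Gal4 alone (n = 2 libraries). The other heads carried GMR-Gal4 driving yki S168A (n = 2 libraries), a form of the transcriptional co-activator Yorkie in which a serine that the Hippo pathway kinase Warts phosphorylates is replaced, and the series describes them as tumor tissue. The driver is thus shared by both groups, while the transgene, its insertion and any difference in stock background separate them and cannot be told apart. The sex and the age of the heads are not given in the labels.

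Yolk proteins are secreted by the female fat body and by the ovary's follicle cells, and the oocyte takes them up through the receptor Yolkless. The fat body, the fly's liver and adipose tissue, also lines the inside of the head capsule, which is why yolk protein RNA is abundant in female heads. Upstream, Sxl is active in females and directs the female splicing of tra RNA, and Tra with Tra2 directs that of dsx RNA. The female Dsx protein activates the yolk protein genes and the male Dsx protein represses them. Counts per gene do not separate the splice forms that carry this sex information. In bulk heads, fewer cells of a type and less RNA per cell cannot be told apart.

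Library totals ran from 15738860 to 18108814 counts, so that 3 counts corresponded to 0.170 to 0.184 CPM. CPM is the usual depth-scaled count, taken after scaling of the libraries by the trimmed mean of M values (TMM), and an SD is over the 2 libraries of a group. Separate crosses for the libraries of a group are not mentioned in the labels, so each p-value rests on a library-to-library spread that may be technical. The driven gene yki was at 15.4 ± 4.26 CPM in control, against 29.7 ± 3.57 CPM with yki S168A (edgeR adjusted p = 0.0112). The neuronal gene elav, a check of the head label, was at 426 to 595 CPM in the 4 libraries. Of 8 eye markers 7 were lower and 1 higher (87.5% and 12.5%, against 12.5% and 15.1% over all genes tested). Their median log2 fold change was −1.55. The higher one was w, at 6.12 CPM in control, against 55.1 CPM with yki S168A (edgeR adjusted p = 1.33e-06).

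Of the 8 genes, 5 fell in yki S168A heads and 0 rose, by edgeR's quasi-likelihood test at a Benjamini-Hochberg adjusted p below 0.05 over 10896 genes. Over all genes tested, 12.5% were called lower and 15.1% higher (1359 and 1647 genes; 1924 and 1276 with upper-quartile scaling, which shifted the median log2 fold change of all genes from 0.01 to −0.14). The 5 were the 3 yolk protein genes, at 28.3% to 29.6% of their control levels, fit and to. Sxl, tra and dsx were not called. Without control replicate 2 only Yp3 of the 8 was called lower, and without control replicate 1 only Yp1, Yp3 and fit. With yki S168A replicate 2 left out 7 were called lower, all but dsx.

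**Figure D1:**
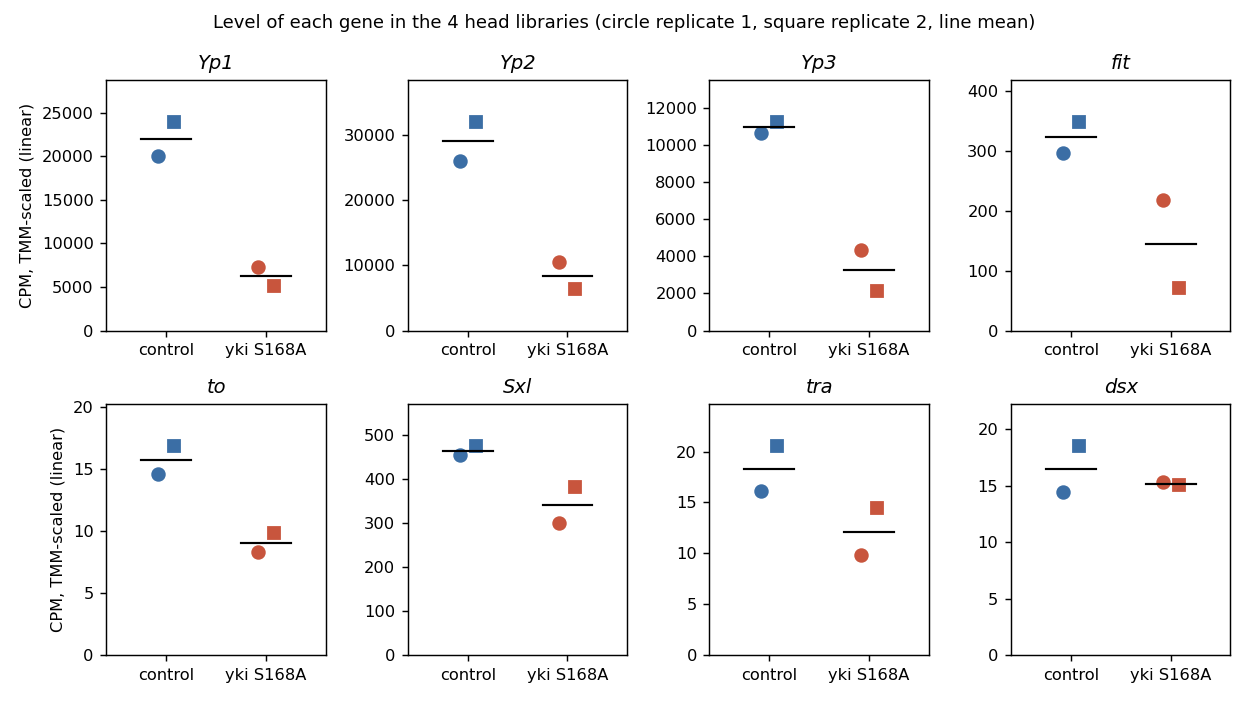
TMM-scaled CPM (linear axes from 0) of the 8 genes in each library, with control in blue and yki S168A in red, replicate 1 as circles, replicate 2 as squares and the group mean as a line. The groups overlap for dsx, and fit spreads from 70.8 to 218 CPM between the yki S168A libraries.

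Yp1, Yp2 and Yp3 encode the 3 yolk polypeptides, members of a lipase-related protein family. Yp1 was at 19983 and 23973 CPM in the controls, against 7324 and 5123 CPM with yki S168A. Yp2 was at 26094 and 32126 CPM in control, against 10531 and 6358 CPM with yki S168A. Yp3 was at 10628 and 11245 CPM in control, against 4351 and 2121 CPM with yki S168A. For each of the 3, both transgenic libraries lay below both controls, and yki S168A replicate 2 was the lowest. Such separation, here and for the genes below, is weak on its own. With 2 libraries against 2, an exact two-sided permutation test cannot give a p below 0.333. The share of all tested genes whose groups do not overlap was not computed.

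The falls were of similar size. Yp1 was 3.53-fold lower (log2 fold change −1.82 ± 0.32 SE, 95% interval −2.52 to −1.12, edgeR adjusted p = 0.00148). Yp2 was 3.45-fold lower (−1.79 ± 0.36 SE, 95% interval −2.57 to −0.999, edgeR adjusted p = 0.00352), and Yp3 3.38-fold lower (−1.76 ± 0.33 SE, 95% interval −2.48 to −1.03, edgeR adjusted p = 0.00235). Their intervals overlapped almost entirely. The Yp1 call was lost without control replicate 2 (adjusted p = 0.0681) and the Yp2 call without control replicate 1 (0.0733) or 2 (0.119), while the log2 fold change of Yp1, Yp2 and Yp3 stayed between −1.33 and −2.37 whichever library was left out. In fold terms Yp3 was 5.17-fold lower without yki S168A replicate 1 and 2.52-fold lower without yki S168A replicate 2.

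Yp2 was the most abundant gene of both control libraries by counts, with Yp1 ranked 3 and 2 and Yp3 ranked 6 in both. In the yki S168A libraries Yp2 ranked 6 and 10, Yp1 11 and 18, and Yp3 22 and 65. Together the 3 genes took 5.90% and 6.97% of all counts in the control libraries, against 2.11% and 1.32% in the yki S168A libraries. Divided by exon length, the mean level in control heads was 17991 CPM per kb for Yp2, 13643 for Yp1 and 5855 for Yp3, and in yki S168A heads 5219, 3863 and 1732 CPM per kb. The order was Yp2, Yp1, Yp3 in each of the 4 libraries.

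The mean proportions of the 3 within the yolk protein counts were similar in both groups while their sum fell. The shares of Yp1 and Yp3 differed more between the yki S168A libraries than between the controls. Yp2 made up 46.02% and 47.7% of the yolk protein counts in control, against 47.4% and 46.7% with yki S168A. Yp1 made up 35.2% and 35.6% in control, against 33.0% and 37.7% with yki S168A, and Yp3 18.7% and 16.7% against 19.6% and 15.6%. These shares need no scaling between libraries, and for each gene the ranges of the groups overlapped.

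**Figure D2:**
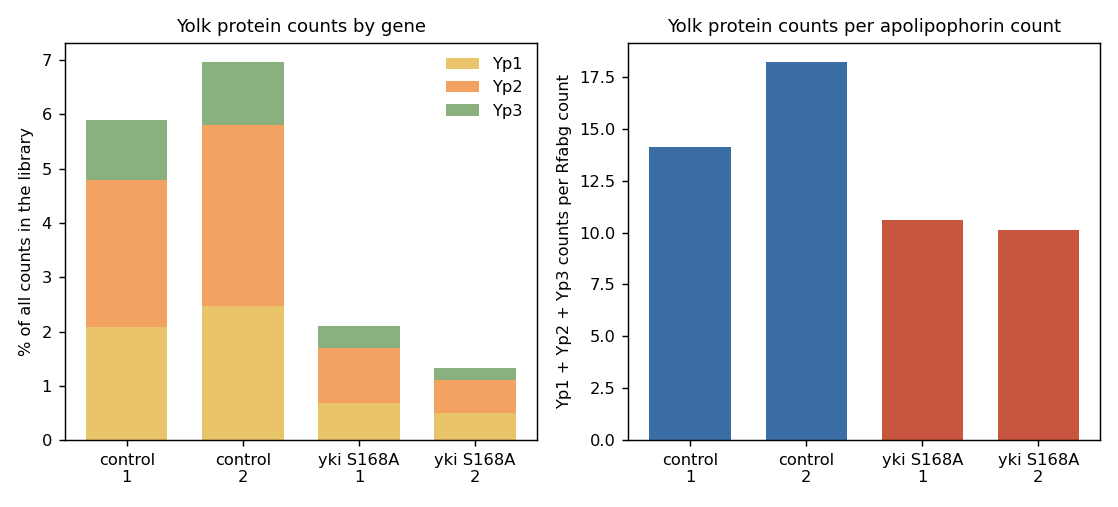
Left, the percent of all counts of a library that fell on Yp1, Yp2 and Yp3, stacked, in each of the 4 libraries; right, the summed yolk protein counts per count of Rfabg, the apolipophorin gene. The stacked share is 5.90% and 6.97% in control, against 2.11% and 1.32% with yki S168A, and the ratio is 14.1 and 18.2 in control, against 10.6 and 10.1 with yki S168A.

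Yp1 and Yp2 lie side by side on chromosome X (build dm6), Yp2 at 10050951 to 10052636 on the minus strand and Yp1 at 10053811 to 10055498 on the plus strand, so that 1174 bases separate their divergent starts. Yp3 lies apart, at 13759546 to 13761547 on the plus strand of the same chromosome. Of the exonic bases of Yp1, 54.3% lie opposite the antisense gene CR45601, which had 0.801 to 1.15 counts per 100 Yp1 counts in the 4 libraries, and Yp2 and Yp3 share exonic bases with no other annotated gene. Whether the counting used strand is not stated, so the reads of Yp1 and CR45601 may not be fully separated. The neighbors did not all move with them. Cht6, a chitinase gene that ends 147 bases from Yp2, gave no call (log2 fold change 0.11, edgeR adjusted p = 0.823), and CG15312, 130 bases beyond Yp1, was lower (−0.75, adjusted p = 0.00679). Beside Yp3, Rtc1 was not called (1.03, adjusted p = 0.140) and the phototransduction gene rdgB was lower (−0.85, adjusted p = 0.00313).

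The gene fit, "female-specific independent of transformer", encodes a secreted fat body protein that is female-biased in the head and is released after protein feeding as a satiety signal. It lies on chromosome 3R at 21883924 to 21884454, on the minus strand. It was at 297 and 349 CPM in the controls, against 218 and 70.8 CPM with yki S168A. Both transgenic libraries were below both controls, but they differed from each other 3.08-fold, against 1.18-fold between the controls. The fitted fall was 2.24-fold (log2 fold change −1.16 ± 0.37 SE, 95% interval −1.96 to −0.36, edgeR adjusted p = 0.0352).

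The size of the fit change rested on yki S168A replicate 2: it was 1.49-fold without that library and 4.56-fold without yki S168A replicate 1. The call was lost without control replicate 2 (adjusted p = 0.0602), without a filter on low counts (0.06) and with DESeq2 (0.282). Per 100 yolk protein counts there were 0.523 and 0.518 fit counts in the control libraries, against 0.981 and 0.521 in the yki S168A libraries. In yki S168A replicate 2 fit and the yolk proteins were thus in a proportion between those of the control libraries, whereas in replicate 1 fit was higher relative to them.

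Some of the reads of fit may belong to the genes that overlap it. CG31465, on the opposite strand, covers 12.6% of the exonic bases of fit, and the noncoding gene CR45046 on the same strand covers 6.0%. CG31465 had 83.9 and 83.1 counts per 100 fit counts in control, against 82.4 and 74.0 with yki S168A. It fell by 1.22 on the log2 scale (edgeR adjusted p = 0.0389), close to the −1.16 of fit, and CR45046 fell by 1.14 (adjusted p = 0.0240). The 3 entries may therefore not be separate measurements.

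The gene to encodes takeout, a secreted protein with a juvenile hormone binding domain that responds to the circadian clock and to starvation, is male-biased in the head fat body and takes part in male courtship. It lies on chromosome 3R at 25240180 to 25241668, on the plus strand, and shares exonic bases with no other annotated gene. It was at 14.6 and 16.9 CPM in control, against 8.32 and 9.82 CPM with yki S168A. The groups did not overlap, and here, unlike for the yolk proteins and fit, yki S168A replicate 2 was the higher of the pair.

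The fall of to was 1.73-fold (log2 fold change −0.79 ± 0.26 SE, 95% interval −1.36 to −0.23, edgeR adjusted p = 0.0406). It stayed between −0.68 and −0.92 when a library was left out, and the call held only without yki S168A replicate 2 (adjusted p = 0.0402; the other 3 gave 0.106 to 0.240). DESeq2 did not call it either (0.0722). There were 4.93 and 4.84 to counts per 100 fit counts in control, and 3.82 and 13.9 with yki S168A, so the proportion of this male-biased to this female-biased gene was below both controls in replicate 1 and above both in replicate 2.

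Of the 19 takeout family genes listed, 17 were tested, of which 5 rose (29.4%, against 15.1% over all genes tested). In this family 1 gene, to itself, fell (5.88%, against 12.5%). The median log2 fold change was 0.29 against 0.01 over all genes tested. CG17189 rose from 7.42 to 24.8 CPM, CG14661 from 151.5 to 375.5 CPM and CG5867 from 164 to 312 CPM (edgeR adjusted p = 0.000295, 3.86e-05 and 0.000797). CG11852, the family member that ends 1284 bases before to, was at 16.04 ± 1.19 CPM in control, against 17.5 ± 3.69 CPM with yki S168A (log2 fold change 0.13, adjusted p = 0.742). Clock genes, several of which set the daily rhythm of to, included 4 lower and 0 higher of 10 (40% and 0%, against 12.5% and 15.1% over all genes). The transcription factor gene Pdp1 was at 2478 ± 145 CPM in control, against 1364 ± 196 CPM with yki S168A (edgeR adjusted p = 0.00576). The time of day at which heads were collected is not given in the labels, and its part in these results was not tested.

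Sxl encodes the RNA-binding protein that sets the female state and is also abundant in neurons. It lies on chromosome X at 7074550 to 7098053, on the minus strand. It was at 454 and 476 CPM in control, against 300 and 383 CPM with yki S168A, both lower than both controls. The difference missed the threshold (log2 fold change −0.44 ± 0.16 SE, 95% interval −0.79 to −0.10, edgeR adjusted p = 0.0580), and it passed under 5 of 9 other settings with all 4 libraries, among them upper-quartile scaling (adjusted p = 0.0153). The neuronal gene elav, at 595 and 569 CPM in control, against 426 and 500 CPM with yki S168A, was not called (log2 fold change −0.33, adjusted p = 0.132). Of 8 neuronal markers 6 were lower (75%, against 12.5% over all genes tested). The part of neuronal RNA in the Sxl values was not tested. There were 76.3 and 83.6 Sxl counts per 100 elav counts in control, against 70.6 and 76.6 with yki S168A, which overlap.

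The gene tra, whose protein is made in females, lies on chromosome 3L at 16590059 to 16591050, on the minus strand, with 8.6% of its exonic bases opposite the neighboring l(3)73Ah. It was at 16.1 and 20.6 CPM in control, against 9.83 and 14.4 CPM with yki S168A. The groups did not overlap, yet the difference was not called (log2 fold change −0.59 ± 0.26 SE, 95% interval −1.17 to −0.01, edgeR adjusted p = 0.124) except without yki S168A replicate 2 (−0.90, adjusted p = 0.0398). Its partner tra2, which is expressed in both sexes, went the other way, from 9.37 ± 0.40 to 16.2 ± 3.26 CPM, 1.73-fold higher (adjusted p = 0.0453), a call lost under 5 of 9 other settings with all 4 libraries (adjusted p 0.0514 to 0.102) and whenever any library but yki S168A replicate 2 was left out (0.157 to 0.198).

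The gene dsx encodes the transcription factor that carries the sex decision to the yolk protein genes. It lies on chromosome 3R at 7924323 to 7967408, on the minus strand. It was at 14.5 and 18.5 CPM in control, against 15.4 and 15.0 CPM with yki S168A, so the groups overlapped. Its log2 fold change was −0.12 ± 0.23 SE (95% interval −0.63 to 0.40, edgeR adjusted p = 0.766). The interval leaves room for a total dsx level up to 1.55-fold lower or 1.32-fold higher, and the count per gene holds nothing on its male and female forms.

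By length, the order of the 3 sex determination genes in control heads was Sxl (50.5 CPM per kb), tra (21.3) and dsx (1.80), and in yki S168A heads it was the same, at 37.2, 14.1 and 1.66 CPM per kb. Of the 26 genes of sex determination and Sxl splicing listed, 22 were tested, with 2 higher and 2 lower (9.09% each, below the shares over all genes) and a median log2 fold change of −0.08. The 2 lower were fru, the neuronal sex determination gene, from 134 ± 4.76 to 81.7 ± 15.4 CPM (adjusted p = 0.00694), and vir, a splicing cofactor of Sxl, from 60.9 ± 11.2 to 31.2 ± 7.92 CPM (adjusted p = 0.00539). The 2 higher were tra2 and os, the JAK/STAT ligand gene that counts X chromosomes in the embryo, which had 1 and 7 counts in control, against 44 and 131 counts with yki S168A. The intersex gene ix, whose protein acts with the female Dsx protein, was at 8.45 ± 2.67 CPM in control, against 9.45 ± 1.32 CPM with yki S168A (adjusted p = 0.776).

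**Figure D3:**
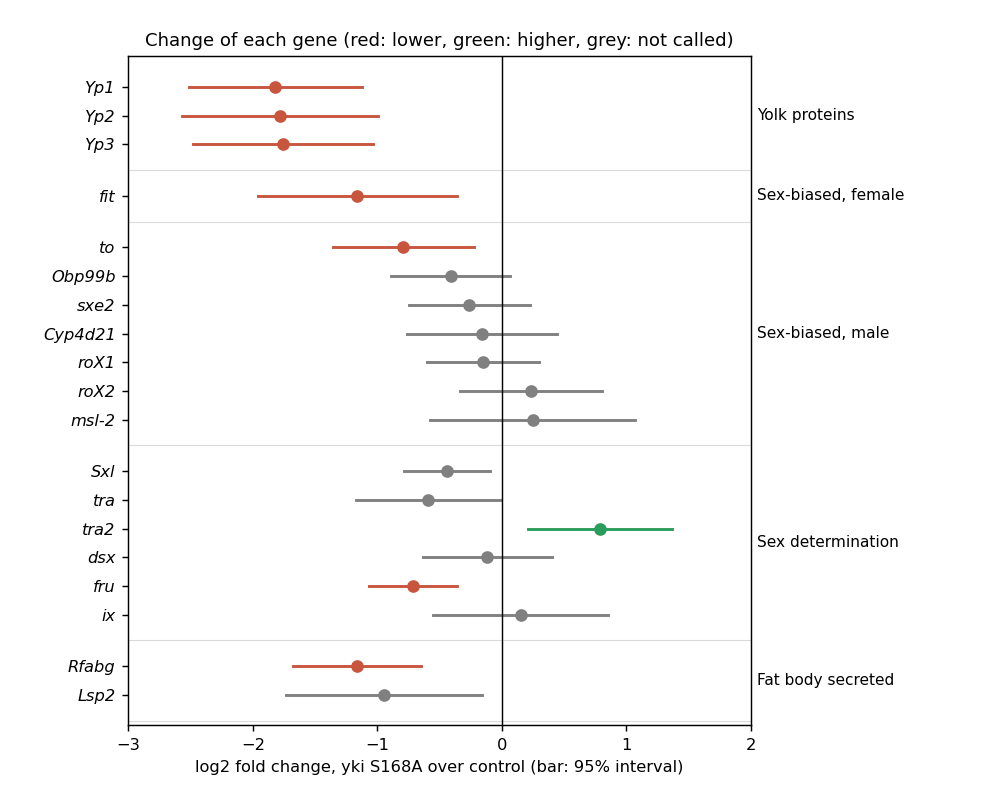
Log2 fold change of yki S168A over control with its 95% interval for the 8 genes, 6 male-biased genes, tra2, fru and ix, and 2 fat body secreted proteins; red is called lower, green higher and grey not called. The yolk proteins lie near −1.8, Rfabg and fit near −1.2, and the male-biased genes other than to have intervals that include 0.

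Since the labels do not give the sex of the heads, male-biased genes were read beside the yolk proteins. RNA of both kinds was present in every library. The male noncoding RNA roX1, a scaffold of the dosage compensation complex on the male X chromosome, was at 2296 and 2114 CPM in control, against 2315 and 1654 CPM with yki S168A. The groups overlapped, and roX1 was left uncalled (log2 fold change −0.15 ± 0.21 SE, 95% interval −0.60 to 0.30, edgeR adjusted p = 0.637). Its partner roX2 was at 12.7 and 9.88 CPM in control, against 13.7 and 12.9 CPM with yki S168A. These groups did not overlap, and roX2 was not called either (log2 fold change 0.23, 95% interval −0.33 to 0.80, adjusted p = 0.554).

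Other male-biased genes of the head also overlapped between the groups. Cyp4d21 (sxe1), a cytochrome P450, was at 26.3 and 27.0 CPM in control, against 31.8 and 16.1 CPM with yki S168A (log2 fold change −0.16, 95% interval −0.76 to 0.44, adjusted p = 0.724). The lipase-related sxe2 was at 33.9 and 33.4 CPM in control, against 34.5 and 21.7 CPM with yki S168A (−0.26, 95% interval −0.75 to 0.23, adjusted p = 0.429). The odorant-binding protein gene Obp99b was at 99.8 and 60.2 CPM in control, against 54.9 and 65.5 CPM with yki S168A (−0.41, 95% interval −0.89 to 0.07, adjusted p = 0.193). For Cyp4d21 and sxe2, yki S168A replicate 1 lay above both controls and replicate 2 below both.

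Of the 6 male-biased genes other than to, 0 were called by edgeR, and 0 by DESeq2 or limma-voom. Their median log2 fold change was −0.16, against 0.01 over all genes tested, and 4 of the 6 were below 0. Without yki S168A replicate 1, however, roX1 (log2 fold change −0.42, adjusted p = 0.0365), Cyp4d21 (−0.73, 0.0356) and sxe2 (−0.63, 0.0417) were called lower, and Obp99b was called lower without control replicate 2 (−0.73, 0.0364). Per 100 yolk protein counts there were 4.05 and 3.14 roX1 counts in control, against 10.4 and 12.2 with yki S168A. With 2 libraries against 2, an exact two-sided permutation test of such a ratio cannot give a p below 0.333. The sex makeup of the heads was not measured, and its part in the yolk protein and fit results was not tested. In the protein part of dosage compensation, the helicase gene mle rose from 142 ± 3.29 to 1419 ± 50.8 CPM (adjusted p = 1.68e-07) and the other 7 of the 8 genes listed, roX1 and roX2 among them, were not called.

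**Figure D4:**
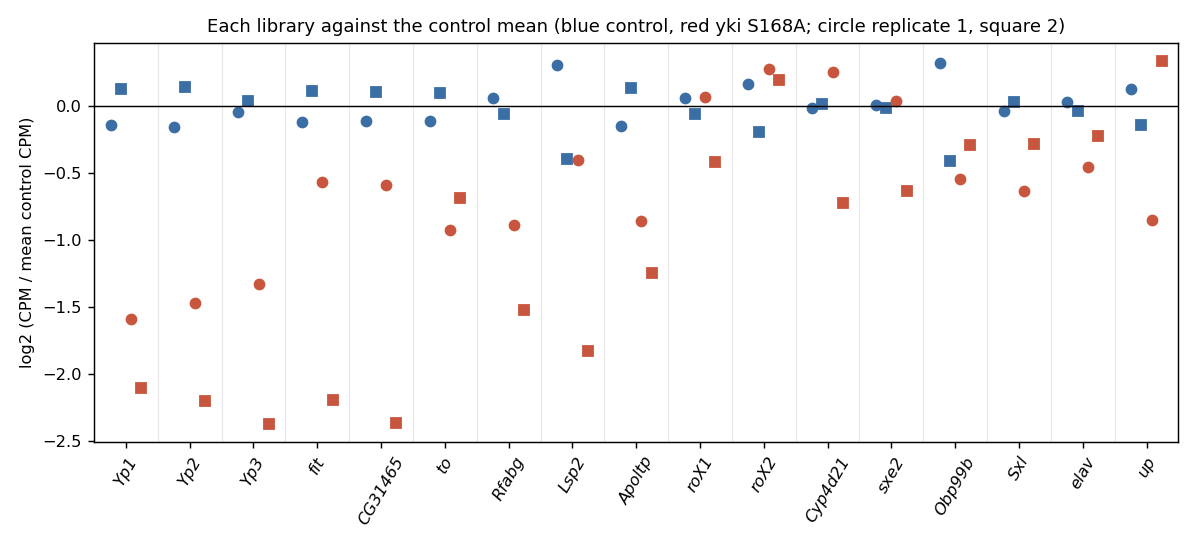
CPM of each library over the mean of the control libraries, on a log2 scale, for the yolk protein genes, fit and its overlapping gene CG31465, to, fat body genes, male-biased genes, Sxl, the neuronal gene elav and the muscle gene up; blue is control, red yki S168A, circles replicate 1 and squares replicate 2. Both yki S168A libraries lie more than 1 log2 unit below the control mean for Yp1, Yp2 and Yp3, while roX1, Cyp4d21 and sxe2 lie below the controls in replicate 2 alone.

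Of 24 fat body markers 23 were tested, of which 12 fell and 3 rose, with a median log2 fold change of −0.50 against 0.01 over all genes. In the median, neuronal, hemocyte and eye markers were lower too, to a similar or greater extent. The median was −0.59 for the 8 neuronal markers (6 lower, 75%) and −0.62 for 6 hemocyte markers (2 lower, 33.3%). It was −1.55 for the 8 eye markers (7 lower, 87.5%, and 1 higher, 12.5%). Of 6 muscle markers 0 were called (median −0.07), and of 2 tested oenocyte and cuticle markers 1 was lower (median 0.46). The part of cell makeup in the yolk protein, fit and to values was not tested. Fewer fat body markers were called lower when either control library was left out than with all 4 libraries. Rfabg, which encodes the apolipophorin that forms the main blood lipoprotein, was at 4020 and 3696 CPM in control, against 2092 and 1347 CPM with yki S168A, 2.24-fold lower (edgeR adjusted p = 0.00366; 0.0561 without control replicate 1). The lipid transfer particle gene Apoltp fell from 136 ± 18.8 to 66.3 ± 12.7 CPM (adjusted p = 0.00115). The storage protein gene Lsp2 was at 418 and 257 CPM in control, against 256 and 95.2 CPM with yki S168A and was not called (adjusted p = 0.0728). The receptor gene for adipokinetic hormone, AkhR, fell from 21.3 to 7.54 CPM (adjusted p = 0.00197).

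The 3 that rose were the iron carrier gene Tsf1 (936 to 5266 CPM, adjusted p = 4.5e-05), the immune-related CG13422 (41.8 to 336 CPM, adjusted p = 5.7e-07) and Fbp1 (5.65 and 16.1 to 14.7 and 44.5 CPM, overlapping, adjusted p = 0.0484). With 7 of the 9 other settings that used all libraries 2 of these 3 were called. The summed CPM of the 24 markers overlapped between the groups, at 9124 and 9525 in control, against 8460 and 12491 with yki S168A. That overlap came from Tsf1: without it, a step chosen after its values were seen, the sums were 8610 and 8167 in control, against 5831 and 4589 with yki S168A, and did not overlap. Set against Rfabg within each library, there were 14.1 and 18.2 yolk protein counts per Rfabg count in control, against 10.6 and 10.1 with yki S168A. The groups did not overlap in this ratio, which was 1.56-fold higher in control. Its size depended on the fat body genes used. Per count of all 23 tested markers summed, there were 5.95 and 7.38 yolk protein counts in control, against 1.78 and 1.61 with yki S168A, a 3.94-fold difference. Without Tsf1 these were 6.59 and 8.25 in control, against 3.81 and 2.96 with yki S168A, a 2.19-fold difference. The same ratio for fit overlapped, at 7.38 and 9.44 fit counts per 100 Rfabg counts in control, against 10.4 and 5.26 with yki S168A, and that of to overlapped as well. There were 0.571 and 0.572 roX1 counts per Rfabg count in control, against 1.11 and 1.23 with yki S168A.

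The yki S168A libraries also differed from each other in genes of the fat body and of other tissues. Relative to replicate 1, replicate 2 held 0.644 times the Rfabg level, 0.372 times that of Lsp2, 0.325 times that of fit and 0.488 to 0.700 times that of the yolk proteins, but 1.45 times that of the muscle myosin gene Mhc and 2.27 times that of the troponin gene up. Genes of one kind did not all move together between these libraries. Of the 7 male-biased genes 4 were lower in replicate 2, among them Cyp4d21 at 0.508 times and sxe2 at 0.630 times, whereas to was at 1.18 times and Obp99b at 1.19 times. Of the 23 fat body markers 14 were lower, whereas Fbp1 was at 3.02 times, Fbp2 at 3.87 times and tobi at 2.96 times. The tobi value rests on 6 and 19 counts with yki S168A, against 545 and 346 counts in control. All 6 muscle and all 8 neuronal markers were higher in yki S168A replicate 2. The controls differed from each other too. In control replicate 2, 5 of 7 male-biased genes, 10 of 23 fat body, 5 of 6 muscle and 2 of 8 neuronal markers were lower than in control replicate 1. The share over all genes was not computed for either pair. The amount of head fat body and muscle in each library was not measured, and its part in the results was not tested.

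Genes of the reproductive organs were near the detection limit. Of 20 ovary markers 14 to 17 had fewer than 20 counts in each library, and the yolk protein receptor gene yl had 0, 18, 0 and 0 counts. Of 30 markers of testis and male accessory gland 26 or 27 had fewer than 20 counts. Est-6, ovo and gus, which are also expressed outside the gonads, held most of the summed level of these markers. Of the 7 ovary markers tested 2 were called higher in yki S168A heads, ovo and the chorion gene Cp16 (28.6%, against 15.1% over all genes tested). Of the 5 testis and male accessory gland markers tested 1 was, the ejaculatory duct peptide gene Dup99B (20%). In both lists 0 were called lower. Cp16 had 0 counts in each control and 17 and 54 with yki S168A. Dup99B had 0 and 2 counts in control, against 15 and 28 with yki S168A.

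Of 18 hormonal and transcriptional regulators of the yolk protein genes 17 were tested, with 2 lower and 2 higher (11.8% each, near the 12.5% and 15.1% over all genes) and a median log2 fold change of −0.26. Kr-h1, the transcription factor gene induced by juvenile hormone, fell from 71.1 ± 1.69 to 35.9 ± 5.61 CPM (edgeR adjusted p = 0.00124), and the ecdysone-induced Eip75B fell by 0.51 on the log2 scale (adjusted p = 0.026). The insulin receptor gene InR rose 1.69-fold (adjusted p = 0.0028) and bab2 1.81-fold (adjusted p = 0.00368). Of 9 receptors of the lipoprotein receptor family and their cofactors 8 were tested, and 2 rose (25%, against 15.1% over all genes). These were LpR2, from 122 ± 1.21 to 246.5 ± 9.35 CPM, and mgl (Megalin), from 471 ± 10.6 to 1115 ± 69.4 CPM (edgeR adjusted p = 0.000239 and 0.000135). Of the 23 lipase family genes listed as relatives of the yolk proteins 9 were tested. Of these, 3 were higher and 1 lower (33.3% and 11.1%, against 15.1% and 12.5% over all genes). CG6472 rose from 20.1 to 279 CPM (edgeR adjusted p = 6.43e-08).

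**Figure D5:**
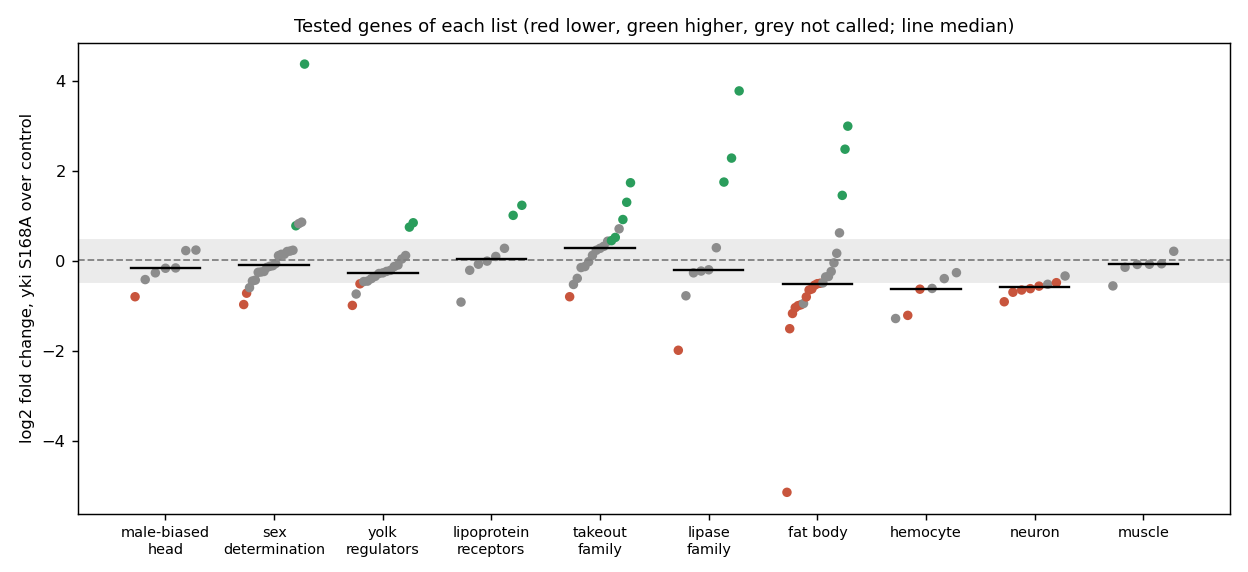
Log2 fold change of yki S168A over control for the tested genes of 10 lists, with red called lower, green higher, grey not called and a black line at each list's median; the grey band is the middle 50% of all 10896 genes and the dashed line their median. The fat body markers have a median of −0.50 with 12 lower and 3 higher, and the male-biased head genes a median of −0.16 with to alone called lower.

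Over the 4 libraries, the genes whose profile lay nearest to that of the summed yolk proteins, among 6680 others with a mean of at least 10 CPM, were sv, CG8525, CG5955, CG42369 and Hsp70Bb. Their distances ran from 0.17 to 0.27 on the log2 scale, each profile being centered on its own mean. Yp1, Yp2 and Yp3 were at 0.14, 0.04 and 0.26 from their own sum, Rfabg ranked 83 at 0.69, fit 122 at 0.79, to 582 at 1.25 and roX1 1922 at 1.69. Nearest to fit were CG31465 and CR45046, which overlap it, with CG14630, PGRP-SB2 and Prat2, at 0.14 to 0.30. Nearest to to were CG42750, CG31688, futsch, CG15312 and whd, at 0.03 to 0.06. With 2 libraries a group, such nearness describes these libraries and no more.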

How the data were processed

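Libraries were prepared from total RNA of 30 adult heads each with the Lexogen SENSE mRNA kit, according to the labels' protocols. For every library the authors deposited raw read counts by gene symbol, and the 4 libraries were grouped by title. The submitters' processing notes name the build dm6; no aligner, counter, annotation or strand setting is given in the sources used here. Symbols present on several lines (17 symbols on 37 lines) were summed, and 16271 of 16489 symbols matched Ensembl release 115, whose dm6 coordinates gave positions, exon lengths and overlaps.

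Counts were filtered with filterByExpr (10896 genes left), TMM-scaled and tested with edgeR 4.0.16 in R 4.3.3 (glmQLFit with legacy = FALSE, glmQLFTest), with group as sole term and Benjamini-Hochberg adjustment over all genes. A standard error was obtained by dividing the size of the log2 fold change by the root of its F statistic. The procedure was tested on simulated data. Members, lists and the naming rule (the 8 members, up to 4 genes of each list led by the smallest p, the 5 nearest profiles and 12 genes fixed by name) were chosen with earlier results of these data known. Genes overlapping or flanking a member were added by position, and other genes of the lists that the text names were chosen after their values were seen. The detection limit of 3 counts covers counting error only. Alternatives used DESeq2 1.42.0, limma 3.58.1, other scalings and filters, a replicate block, and each library left out.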

Additional observations from a re-analysis of the deposited data

How the results depend on the processing

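Yp1, Yp2, Yp3, fit, to, tra and Sxl kept their direction under all 9 other settings with 4 libraries and with each library left out. Of the 8 genes 4 to 6 were called lower under those 9 settings, and 1 to 7 as libraries were left out, with 0 called higher in any. Of all genes, 2572 to 3626 were called under the 9 settings and 1634 to 3123 as libraries were left out. Upper-quartile scaling called 1276 genes higher and 1924 lower and moved the median of all genes to −0.14, with the 5 calls kept and Sxl added. As libraries were left out, 5 to 15 fat body markers were lower and 0 to 3 of the male-biased genes other than to were called. Over the tested genes, the replicate 1 minus 2 deviations of the groups had a correlation of 0.0171. As a value over all genes it does not settle whether the libraries were paired for single genes. A replicate block called 3626 genes, against 3006 without it, with 6 of the 8 lower. The genes followed under each setting were the 8, the leading genes of each list, those fixed by name, and CR45601, CR45046 and CG31465. Of these, 9 changed sign under at least 1 setting, and these 9 were not called by edgeR with all 4 libraries. Other genes named in the text were not followed. The log2 fold change of ix was −0.008 with upper-quartile scaling and −0.13 to 0.52 as libraries were left out. The same ranges were −0.29 to 0.071 for dsx, −0.42 to 0.067 for roX1, −0.63 to 0.033 for sxe2, −0.73 to 0.25 for Cyp4d21, −0.85 to 0.34 for up, −1.02 to 0.15 for Act88F, −0.072 to 0.50 for Mlc2 and −6.86 to 0.33 for betaTub85D. The causes were not tested. The legacy quasi-likelihood fit, the sums without Tsf1 and all fat body and male-biased recounts were added after the data were seen. With 2 libraries a group, intervals stayed wide, reaching from 2.18-fold to 5.72-fold for Yp1.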
